A study of Mus musculus with 7 samples.

Results

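The genes described here are the Polycomb Cbx readers Cbx2, Cbx6, Cbx7 and Cbx8 and the polyhomeotic homologues Phc1, Phc2 and Phc3. They were chosen by gene symbol and are 7 of the 29955 gene rows of an RNA-seq table of mouse embryonic fibroblasts (MEFs), cells grown out of embryos and kept here in DMEM with fetal calf serum. All cells were of the C57BL/6 strain and all lacked p53. In the 3 p53 KO libraries nothing else is labelled as altered, in the 2 p53/Mdm2 KO libraries Mdm2 was deleted as well, and in the 2 p53 KO Mdm2 C462A libraries Mdm2 carried a knock-in substitution in its RING domain, the part that acts as a ubiquitin ligase. The labels describe neither the alleles nor the age of the embryos, and they leave unsaid whether the replicates are separate embryos or separate cultures, so p-values measure the spread between these libraries, which may be technical. The series title concerns Mdm2 and Polycomb repression independent of p53, and the comparisons ask whether these genes had other transcript levels once Mdm2 was lost or its RING domain changed.

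Polycomb repressive complex 1 (PRC1) exists in several forms. In the canonical form, a Cbx protein binds the histone mark H3K27me3, which is laid down by PRC2, through its chromodomain, and a Phc protein links complexes to each other through a SAM domain that forms polymers. Both are built around the ubiquitin ligases Ring1 and Rnf2. In fibroblasts Polycomb complexes are best known for repressing the Ink4a/Arf locus, Cdkn2a, and Cbx7 and Cbx8 are known repressors of it.

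The readers and the Phc genes are each a family with related coding sequence, which matters here because every value rests on single reads of 50 bases assigned to 1 gene. The start of the coding sequence of 3 readers, where the chromodomain is encoded, is shown for this reason, as the first 165 coding bases of GENCODE M21 transcripts (GRCm38, coding strand). Capitals mark the 101 bases (61.2%) that are the same in Cbx6, Cbx7 and Cbx8.
Cbx6: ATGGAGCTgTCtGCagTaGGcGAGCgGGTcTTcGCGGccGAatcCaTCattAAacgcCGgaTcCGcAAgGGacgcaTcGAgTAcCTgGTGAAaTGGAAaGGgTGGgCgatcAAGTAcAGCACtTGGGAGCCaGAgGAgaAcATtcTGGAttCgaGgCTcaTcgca
Cbx7: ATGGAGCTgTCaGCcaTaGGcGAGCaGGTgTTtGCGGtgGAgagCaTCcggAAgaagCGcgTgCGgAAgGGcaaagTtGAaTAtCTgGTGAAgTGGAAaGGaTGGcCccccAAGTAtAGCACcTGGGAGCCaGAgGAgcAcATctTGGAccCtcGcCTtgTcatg
Cbx8: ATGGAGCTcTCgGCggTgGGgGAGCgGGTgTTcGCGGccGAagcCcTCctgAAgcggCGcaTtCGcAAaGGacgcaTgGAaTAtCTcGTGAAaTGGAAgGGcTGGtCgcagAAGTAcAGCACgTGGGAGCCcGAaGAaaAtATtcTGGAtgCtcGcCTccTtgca
For the Phc genes the corresponding stretch lies near the end of the coding sequence, where the SAM domain is encoded, and is given as the 150 bases that end 30 bases before the stop codon, with capitals for the 101 bases (67.3%) shared by all 3.
Phc1: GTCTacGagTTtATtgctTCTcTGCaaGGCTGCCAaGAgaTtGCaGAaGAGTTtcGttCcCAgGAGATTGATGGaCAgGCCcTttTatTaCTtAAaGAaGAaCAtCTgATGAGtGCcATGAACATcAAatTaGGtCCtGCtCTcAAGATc
Phc2: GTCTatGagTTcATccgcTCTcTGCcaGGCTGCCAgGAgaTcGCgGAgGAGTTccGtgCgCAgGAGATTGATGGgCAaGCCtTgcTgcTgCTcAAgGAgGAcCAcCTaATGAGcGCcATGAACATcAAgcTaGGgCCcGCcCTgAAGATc
Phc3: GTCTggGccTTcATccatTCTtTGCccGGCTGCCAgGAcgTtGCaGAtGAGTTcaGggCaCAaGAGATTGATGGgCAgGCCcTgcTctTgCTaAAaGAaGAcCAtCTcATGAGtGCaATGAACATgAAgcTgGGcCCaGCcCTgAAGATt
Within these windows Cbx6 and Cbx8 were the most alike of the 3 readers shown, with 78.2% identical bases, and Phc2 and Phc3 the most alike of the Phc genes, with 78.0%. Over the whole transcripts, the longest exact run shared by any of the 21 pairs of these genes was 20 bases, between Phc2 and Phc3. No read of 50 bases therefore matches 2 of these 7 transcripts exactly.

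A different overlap does touch Cbx6. The neighbouring gene Npcd, which RefSeq also lists as Cbx6-Nptxr, shares 563 exon bases with Cbx6, which is 38.7% of its own exon length and 9.70% of that of Cbx6, and its first 537 coding bases are identical to those of Cbx6. How the authors counted reads in such shared exons is not given in the sources used here. The table also has a second row, Edr2_p36, whose name joins Edr2 and p36, both synonyms of Phc2 in RefSeq. It held between 29.2% and 33.5% as many normalized reads as the Phc2 row in each library, and it is kept apart from Phc2 below. On the chromosomes, Cbx2 and Cbx8 are neighbours on chromosome 11, Cbx6 and Cbx7 lie on chromosome 15 with Apobec3 between them, and Phc1, Phc2 and Phc3 are on chromosomes 6, 4 and 3. These positions are from RefSeq GRCm38, whereas the table was made on mm9, so no coordinates are given.

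Recovered library totals ran from 28.5 to 41.5 M reads (1 M is 1e6), and the 7 genes had between 115 and 8829 reads in a library, so counting error was at most 9.33% of a value. The targeted genes kept reads in every library: Trp53 had 687 to 1775 normalized reads and Mdm2 had 1575 and 2334 in the 2 p53/Mdm2 KO libraries against 1746 to 1994 in p53 KO. The labels do not say which exons are deleted, so these gene totals check nothing, and genotypes are named as labelled. Of 12 fibroblast markers, 10 had at least 100 normalized reads in every library, but the library labelled p53 KO replicate 1 had 3456 normalized reads of the collagen gene Col1a2 and 99.1 of Thy1, where the other 6 had at least 175050 and 6592. Fn1 (156823) was also at its lowest there, whereas Col3a1 (166679), Vim (155416) and S100a4 (37554) were at their highest. The same library had 493 normalized reads of Sox2, against at most 13.03 elsewhere. Of the other neural markers, Nes (1312) and Tubb3 (18.2) were at their lowest in that same library. The sum of 5 neural markers, mostly Nes, was 1886 to 12453 in p53 KO, 5063 to 13066 in p53/Mdm2 KO and 2815 to 3092 in Mdm2 C462A, and that of 6 epithelial markers was 248 to 596, 65.7 to 1261 and 218 to 730.3 in the same order. Among these Krt5 was at or near 0 in all libraries, while Krt18 ran from 39.9 to 662 and Cdh1 reached 345 in p53 KO replicate 1. In p53 KO replicate 1, 171 genes were over 4-fold higher and 283 over 4-fold lower than in any other library, and in Mdm2 C462A replicate 2 these numbers were 81 and 15. Many of the differences that moved by over 1.5 times when either or both were left out are given with and without them. The part of these 2 libraries in the results was not tested.

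Levels were first compared between the 7 genes per length. Divided by exon length (the union of exons in GENCODE M21), Phc2 and Cbx6 were the most abundant, with medians over the 7 libraries of 827 and 785 normalized reads per kb and ranges of 658 to 1059 and 598 to 1382, the former inside the latter. Phc1 followed with a median of 291 reads per kb (218 to 320) and Phc3 with 217 (164 to 274), again with overlapping ranges. The other readers were lower: Cbx2 at 122 reads per kb (99.5 to 191), Cbx8 at 61.4 (48.9 to 89.7) and Cbx7 at 51.1 (33.8 to 88.1). Cbx8 and Cbx7 did not separate, whereas Cbx2 lay above Cbx8 in all 7 libraries. Cbx6 made up 68.7% to 82.2% of the summed reads per kb of the 4 readers. The place of Phc3 depended on the length used. Its exon union of 11682 bases is much longer than the 3019 bases of the transcript with its longest coding sequence. With such transcripts its median was 841 reads per kb, beside 898 for Phc2. Phc3 then lay above Phc2 in p53 KO replicate 3, p53/Mdm2 KO replicate 2 and both C462A libraries, and below it in the others.

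**Figure D1:**
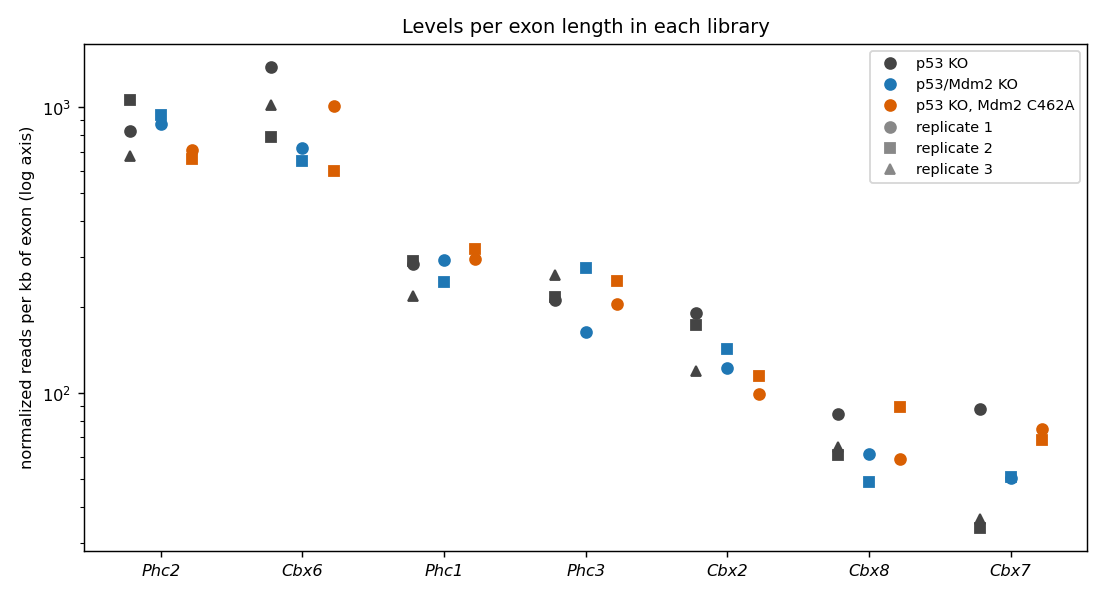
Normalized reads per kb of exon (log axis) of the 7 genes, ordered by their median; each point is 1 library, coloured by genotype, with the replicate number given by its shape. Phc2 and Cbx6 share the top (598 to 1382 reads per kb), and Cbx8 and Cbx7 the bottom (33.8 to 89.7).

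Among the readers, Cbx2, whose protein also compacts nucleosomes, had 728, 657 and 454 normalized reads in p53 KO replicates 1 to 3, 466 and 543 in the p53/Mdm2 KO libraries and 379 and 436 in the Mdm2 C462A libraries. Both C462A libraries lay below all 5 others, while p53/Mdm2 KO lay within the range of p53 KO. The share of all genes with C462A below all 5 was not counted, and 14.4% had it below p53 KO. The group means were 613 ± 142 (SD, n = 3), 505 ± 54.8 (n = 2) and 407 ± 40.2 (n = 2). On the deposited log2 scale the C462A libraries differed from p53 KO by -0.54 (SE 0.26, 95% interval -1.16 to 0.076), with an unadjusted limma p of 0.0762 and an adjusted p of 0.529 (Benjamini-Hochberg over all genes tested), so the difference did not pass. The mean of 16 mitosis genes was also low in these libraries, at -0.77 and -1.81 on the log2 scale from the p53 KO mean, against -0.50 and -0.11 in p53/Mdm2 KO. Within p53/Mdm2 KO the library with the higher mitosis mean also had more Cbx2, and p53 KO replicate 1 was highest for both. Within C462A, however, the library with the lower mitosis mean had more Cbx2. Replicates 2 and 3 of p53 KO had nearly equal mitosis means (-0.052 and -0.049) but 657 and 454 reads of Cbx2. The part of the mitosis genes in the Cbx2 difference was not tested.

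Cbx6, the most abundant reader in these cells, had 8025, 4556 and 5916 normalized reads in p53 KO, 4189 and 3754 in p53/Mdm2 KO and 5878 and 3474 in Mdm2 C462A. The highest value came from p53 KO replicate 1, both p53/Mdm2 KO libraries lay below all p53 KO libraries, and the 2 C462A libraries were 1 on each side of them. The difference of p53/Mdm2 KO from p53 KO was -0.60 (SE 0.32, 95% interval -1.36 to 0.16, unadjusted limma p 0.105, adjusted p 1.00) and -0.39 without p53 KO replicate 1. For C462A it was -0.41 (95% interval -1.17 to 0.35), -0.03 without C462A replicate 2, and 0.18 with that library and p53 KO replicate 1 both left out, so it had no steady direction. Npcd, which shares exons with Cbx6, had 2338 normalized reads in p53 KO replicate 1, 695 and 778 in the other p53 KO libraries and 413 to 604 in the 4 libraries with altered Mdm2. It amounted to 29.1% of the Cbx6 value in p53 KO replicate 1 and 10.3% to 15.3% elsewhere. Nptxr, the neuronal pentraxin receptor gene and the other name in Cbx6-Nptxr, was high in the same library, with 1219.8 normalized reads against 132 to 294 in the others. How far reads of Npcd entered the Cbx6 values was not tested.

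**Figure D2:**
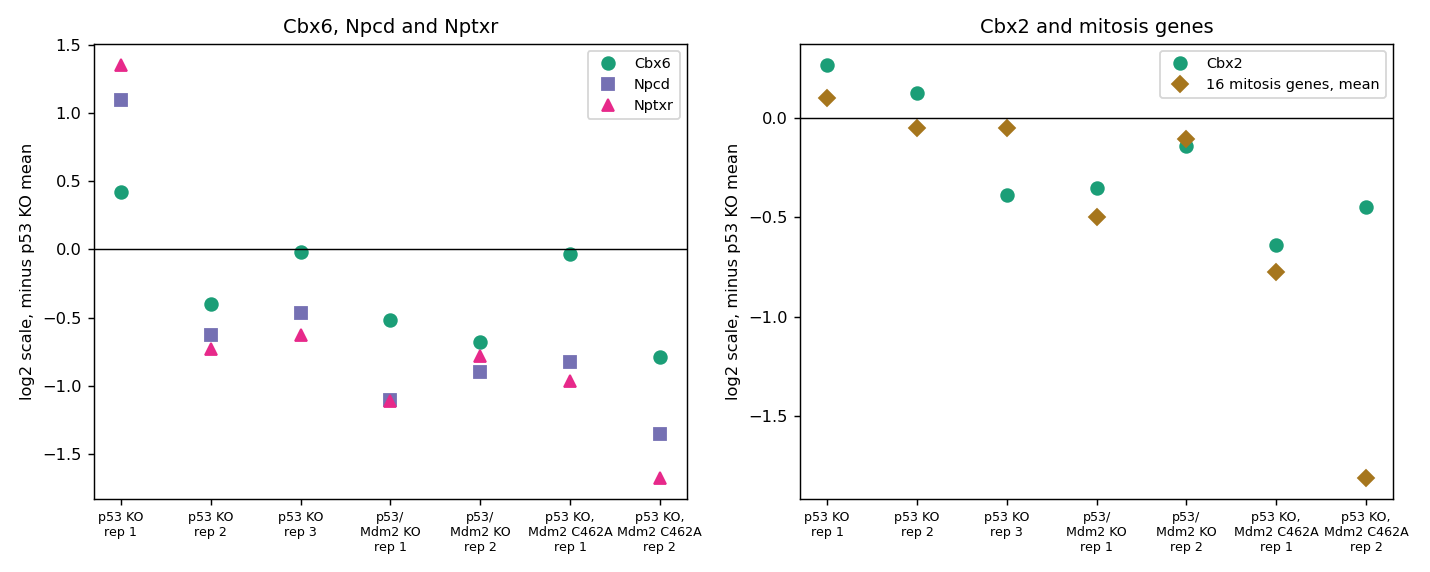
Deposited log2 values minus the p53 KO mean, 1 point per gene and library, for Cbx6 with Npcd and Nptxr (left) and for Cbx2 with the mean of 16 mitosis genes (right). On the left all 3 genes are highest in p53 KO replicate 1; on the right the mitosis genes reach -1.81 in Mdm2 C462A replicate 2, where Cbx2 is no lower than in replicate 1.

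Cbx7, the least abundant per kb, had 299.9, 115 and 124 normalized reads in p53 KO, 172 and 174 in p53/Mdm2 KO and 256 and 234 in Mdm2 C462A. It showed the widest span of the 7 genes over the libraries, 1.25 on the log2 scale, where the median over all genes tested was 0.93. That span was ordinary for its level: 53.9% of the 1759 genes with a mean within 1.5 times of its own had a smaller one. The library labelled p53 KO replicate 1 stood highest of all, and the other p53 KO libraries stood lowest. With all libraries, the C462A difference from p53 KO was 0.53 (SE 0.41, 95% interval -0.47 to 1.52, adjusted limma p 0.700). Without p53 KO replicate 1 it was 0.93 (SE 0.22, unadjusted limma p 0.00583, adjusted p 0.371), with 11.8% of all genes then at an unadjusted p under 0.05. For both genotypes averaged it was 0.70 (unadjusted limma p 0.0108, adjusted p 0.492), with 8.47% of all genes at an unadjusted p under 0.05. The p53/Mdm2 KO difference went from 0.068 to 0.47 (unadjusted p 0.0772). All 4 libraries with altered Mdm2, at 172 to 256 normalized reads, then lay above the 2 remaining p53 KO libraries, at 115 and 124, as was so for 9.68% of all genes tested without that library. The adjusted threshold was not passed either way, and Cbx7 was singled out for this after its values had been seen.

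Cbx8, a reader that also recruits transcriptional regulators, had 304, 217 and 233 normalized reads in p53 KO, 219.9 and 175 in p53/Mdm2 KO and 211 and 321 in Mdm2 C462A. The 3 groups overlapped. The differences from p53 KO were -0.31 (95% interval -1.0 to 0.37) for p53/Mdm2 KO and 0.064 (-0.62 to 0.75) for C462A, with adjusted limma p-values of 1.00 and 0.956. Without p53 KO replicate 1 they were -0.18 and 0.20, and without C462A replicate 2 the latter was -0.22.

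Of the Phc genes, Phc1 varied least of all 7, spanning 0.54 on the log2 scale, a span smaller than that of all but 17.2% of genes tested. It had 1223, 1252 and 942 normalized reads in p53 KO, 1259 and 1053 in p53/Mdm2 KO and 1271 and 1380.3 in Mdm2 C462A. Both C462A libraries lay above all others, by little. The share of all genes like this was not counted, and 14.1% had C462A above p53 KO. For Phc1 the difference from p53 KO was 0.23 (SE 0.20, 95% interval -0.25 to 0.70, adjusted limma p 0.735), and 0.096 without p53 KO replicate 3.

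Phc2, the most abundant Phc gene per kb of exon, had 3547, 4537 and 2885 normalized reads in p53 KO, 3749 and 4011 in p53/Mdm2 KO and 3042 and 2819 in Mdm2 C462A. Both C462A libraries lay below both p53/Mdm2 KO libraries, and against p53 KO replicate 3 replicate 1 lay above and replicate 2, the lowest of all 7 libraries, below. The difference of C462A was -0.29 from p53 KO (95% interval -0.81 to 0.23, adjusted limma p 0.678) and -0.40 from p53/Mdm2 KO (SE 0.24, -0.97 to 0.17, unadjusted p 0.136). The former was -0.13 without p53 KO replicate 2 and -0.45 without p53 KO replicate 3. The row Edr2_p36 gave similar differences of -0.28 from p53 KO in C462A and 0.077 in p53/Mdm2 KO, where Phc2 had 0.11. Without C462A replicate 2 the C462A difference was -0.18 for Edr2_p36 and -0.24 for Phc2. Without p53 KO replicate 1 the p53/Mdm2 KO difference was 0.018 for Edr2_p36 and 0.099 for Phc2.

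Phc3 had 2465, 2539 and 3014 normalized reads in p53 KO, 1914 and 3206 in p53/Mdm2 KO and 2399 and 2886 in Mdm2 C462A. Its 2 p53/Mdm2 KO libraries were the lowest and the highest of all 7, and no group separated from another. The differences from p53 KO were -0.10 (95% interval -0.71 to 0.51) for p53/Mdm2 KO and -0.017 (-0.63 to 0.59) for C462A, and their direction changed when single libraries were left out.

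**Figure D3:**
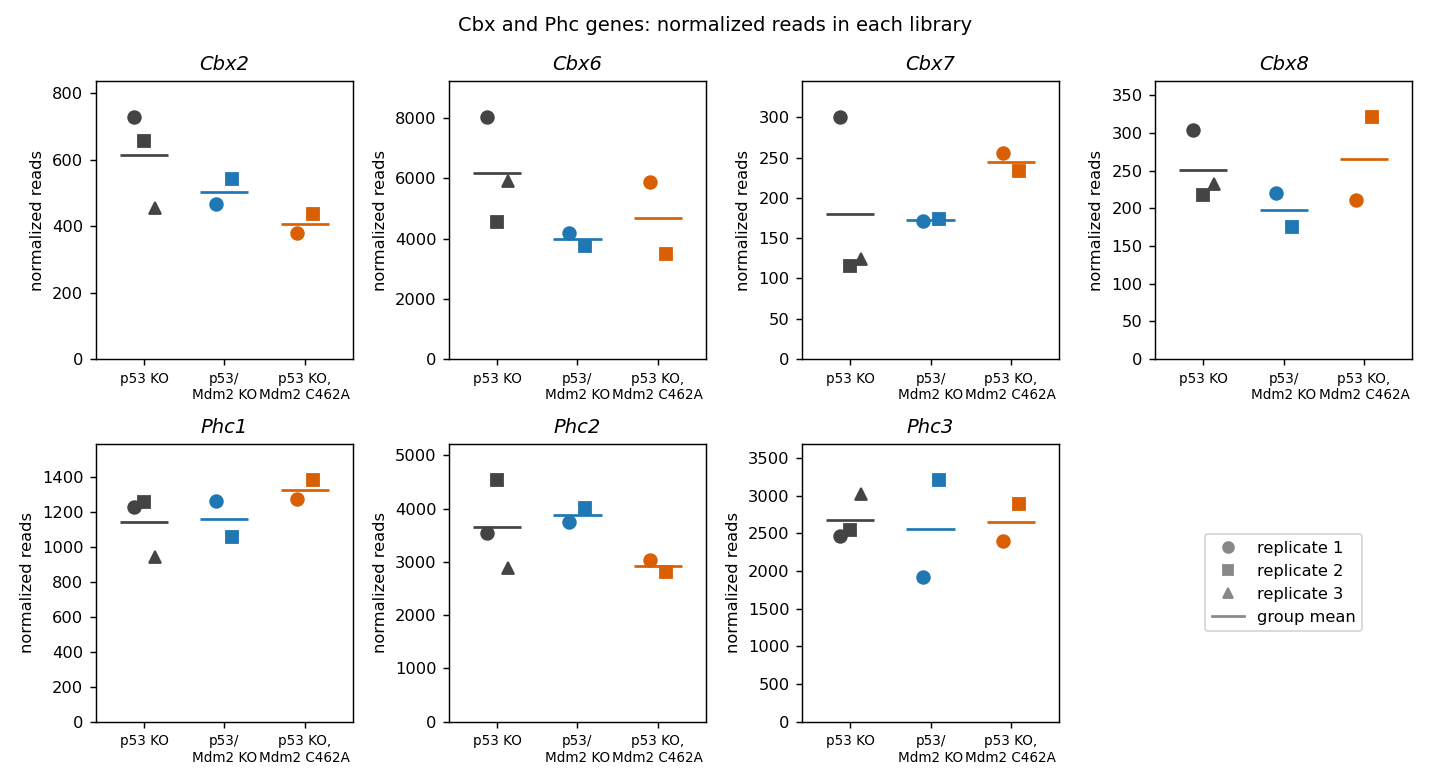
Normalized reads of each of the 7 genes (vertical axes from 0) in the 7 libraries, by genotype; shapes give the replicate number and lines the group means. Cbx7 in p53 KO splits into 1 library at 299.9 and 2 at 115 and 124. Both Mdm2 C462A libraries are the lowest for Cbx2 and the highest for Phc1, and the share of all genes with such patterns was not counted.

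Loss of Mdm2 was compared first, p53/Mdm2 KO against p53 KO. None of the 7 genes passed the adjusted threshold, nor did any of the 16900 genes tested by limma (0% called), and limma's voom on recovered reads called 0 in each of the 4 comparisons. At an unadjusted p under 0.05 there were 0 of the 7 and 507 of all genes (3%). The largest differences were those of Cbx6 (-0.60), Cbx8 (-0.31) and Cbx2 (-0.25), but without p53 KO replicate 1 Cbx7 came first with 0.47, before Cbx6 at -0.39, Cbx8 at -0.18, Phc3 at -0.16 and Cbx2 at -0.12. With all libraries the median size of a difference was 0.11 over the 7 genes and 0.20 over all genes tested. The 2 groups did not overlap for 1 of the 7, Cbx6, which was lower, and for 18.2% of all genes (9.2% lower). The 95% intervals reached from -1.36 (Cbx6) to 1.06 (Cbx7).

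The Mdm2 C462A libraries against p53 KO had, within this comparison, its lowest difference for Cbx2 at -0.54 and its highest for Cbx7 at 0.53. Again 0 of the 7 passed, adjusted or unadjusted, where 0% of all genes passed the adjusted threshold and 10.4% (1761 genes) had an unadjusted limma p under 0.05. Single libraries moved this: Cbx2 had an unadjusted limma p of 0.0248 without p53 KO replicate 3, and Cbx7 had 0.00583 without p53 KO replicate 1. Of the 16900 genes tested, 1433 were under 0.05 in the former fit and 1988 (11.8%) in the latter. Groups did not overlap for 2 of the 7, Cbx2 below and Phc1 above, and for 28.6% of all genes, 14.4% below and 14.1% above. The median size of a difference was 0.29 over the 7 genes and 0.28 over all genes tested.

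Between the mutant genotypes, C462A against p53/Mdm2 KO, the sizes were similar. Groups of 2 and 2 did not overlap for 4 of the 7 (Cbx2 and Phc2 lower, Cbx7 and Phc1 higher in C462A) and for 32.9% of all genes tested (17.1% lower, 15.8% higher). No gene passed the adjusted threshold (0%), and 0 of the 7 and 2.98% of all genes (503) had an unadjusted limma p under 0.05. With both genotypes averaged against p53 KO, Cbx6 was at -0.50 and Cbx2 at -0.40 (unadjusted p 0.103 and 0.112), 0 of the 7 were called or free of overlap, and 7.82% of all genes had an unadjusted p under 0.05, 0% passed the adjusted threshold and 9.65% were free of overlap. Without p53 KO replicate 1 these differences were -0.29 for Cbx6 and -0.26 for Cbx2, and without C462A replicate 2 as well that of Cbx6 was -0.10. Unadjusted limma p-values under 0.05 came up without single p53 KO libraries for Cbx6 (0.0477 without replicate 2), Cbx2 (0.0329 without replicate 3) and Cbx7 (0.0108 without replicate 1). These were picked out of many fits. Of all genes, 7.82% had such a p with all libraries and 8.47% without p53 KO replicate 1. The shares without p53 KO replicate 2 or 3 are not given here, so the Cbx6 and Cbx2 values have none beside them. The comparisons against p53 KO share the same 3 libraries.

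**Figure D4:**
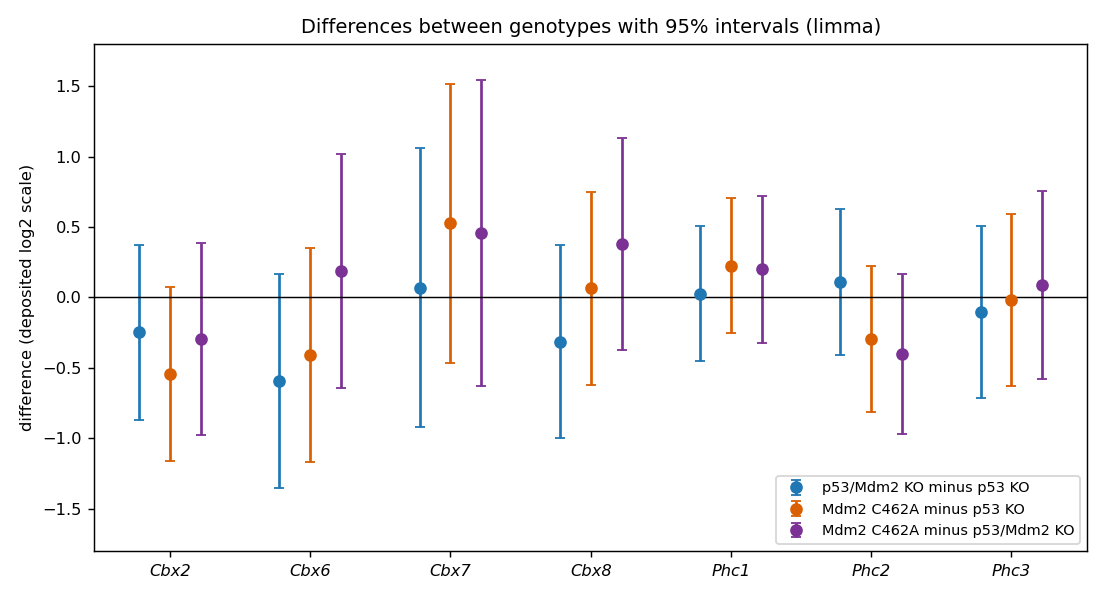
Differences between genotypes on the deposited log2 scale for each of the 7 genes, with 95% intervals from limma, for the 3 pairwise comparisons. Every interval includes 0, from Cbx6 at -0.60 in p53/Mdm2 KO to Cbx7 at 0.53 in Mdm2 C462A.

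Proportions within the families were looked at after these values had been seen, and carry no test. Phc1 reads amounted to 0.418 and 0.490 of Phc2 reads in the C462A libraries and to 0.263 to 0.345 in the other 5. Cbx7 amounted to 0.675 and 0.536 of Cbx2 in C462A and to 0.175 to 0.412 elsewhere. For 1 altered genotype against p53 KO, groups of 2 and 3 libraries cannot give an exact two-sided permutation p below 0.2. That bound is not for the 2 libraries against 5 described here.

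Among the other genes of the pathway, 0 passed the adjusted limma threshold in any of the 4 comparisons. Of 20 other PRC1 genes, which include the ligases Ring1 and Rnf2 and the Pcgf subunits, 14 had lower and 6 higher values in p53/Mdm2 KO than in p53 KO, with a median of -0.12 beside -0.01 over all genes tested. In C462A 12 were lower and 8 higher, with a median of -0.12 beside 0.011 over all genes, and without p53 KO replicate 1 it was 10 and 10. The 2 of 20 with an unadjusted p under 0.05, beside 10.4% of all genes, were L3mbtl2 (-0.70), which belongs to a variant PRC1, and Scml2 (-1.02). Of 11 PRC2 genes, 10 were lower in C462A (median -0.15), where 8255 of the 16900 genes tested were lower, and without p53 KO replicate 1 it was 7. With all libraries 3 had an unadjusted p under 0.05, against the same 10.4%: Ezh2, the methyltransferase that makes the mark Cbx proteins read, at -0.65, the histone-binding subunit Rbbp7 at -0.53 and the accessory subunit Phf19 at -1.52. Phf19 had 1196, 589 and 663 normalized reads in p53 KO but 500.2 and 130 in C462A, and without C462A replicate 2 its difference was -0.62, that of Scml2 -0.54, that of L3mbtl2 -0.47, that of Rbbp7 -0.35 and that of Ezh2 -0.44. None of these 5 had an unadjusted limma p under 0.05 without that library or without p53 KO replicate 1. In p53/Mdm2 KO 6 were higher and 5 lower, with a median of 0.0060. The HP1 genes Cbx1, Cbx3 and Cbx5, whose chromodomains read H3K9 methylation instead, were all lower in C462A, at -0.36, -0.45 and -0.63, the first and last with an unadjusted p under 0.05, which neither kept without p53 KO replicate 1 or C462A replicate 2. Cbx3 was at -0.043 without both. The 16 mitosis genes were all lower in C462A too, with a median of -1.30, and -0.81 without C462A replicate 2. The part of the mitosis genes in the PRC2 and HP1 values was not tested.

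Cdkn2a, the classical target of these complexes in fibroblasts, had 3901, 9981 and 8753 normalized reads in p53 KO, 10690.3 and 8155 in p53/Mdm2 KO and 13727 and 9397 in Mdm2 C462A. Its lowest value was that of p53 KO replicate 1, the library with the most Cbx7, and the other 6 libraries overlapped. The C462A libraries, next highest for Cbx7 (256 and 234), had 13727 and 9397 reads of Cdkn2a. In p53 KO replicates 2 and 3, lowest for Cbx7 (115 and 124), Cdkn2a had 9981 and 8753. How the 2 genes relate was not tested. The differences of Cdkn2a from p53 KO were 0.42 (SE 0.43) and 0.70 (SE 0.43), with adjusted limma p-values of 1.00 and 0.624. Without p53 KO replicate 1 they were -0.0015 and 0.28. Cdkn2b, its neighbour, differed by 0.0029 and 0.49 (adjusted p 1.00 and 0.720), and by -0.37 and 0.12 without p53 KO replicate 1.

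The genes whose pattern over the 7 libraries was most like that of each member were found by the root-mean-square difference of centred log2 values among 12028 genes with a mean of at least 100 normalized reads. For Cbx2 they were Cd3eap and Sac3d1 (0.072 and 0.074, where the spread of Cbx2 itself was 0.30). Cbx6 was nearest to Ndufa5 and Zfp41 (0.096 and 0.10, spread 0.40) and Cbx7 to Gpt and Fchsd1 (0.12 and 0.15, spread 0.44). The nearest to Cbx8 were Tbcb and Bif1 (0.067 and 0.077, spread 0.26). Phc1 lay closest to Tcfe3 and Pex14 (both 0.05, spread 0.17), Phc2 to Tkt and to its own second row Edr2_p36 (0.064 and 0.065, spread 0.24), and Phc3 to an entry without a gene symbol and Triad2 (0.062 and 0.077, spread 0.23). Within the 7 genes the closest pair was Cbx2 and Phc2 (0.22) and the farthest Cbx7 and Phc2 (0.57).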

How the data were processed

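RNA of 7 libraries was sequenced as single reads of 50 bases after a TruSeq preparation from total RNA, per the labels' protocols. The submitters' processing notes list the build mm9 and the tools Bowtie2 2.1.0, CASAVA 1.8.2 and DESeq 1.14.0 but not what each was used for. For the counter, its annotation and its strand handling, the sources used here give nothing. The authors deposited 1 table of log2-like values, which behave as variance-stabilized reads: a gene without reads has 3.36 in every column. Inverting that transformation gave normalized reads, and dividing by 1 step per library gave whole reads, with 100% of values under 2000 reads within 0.05 of a whole number. A count of 0 allows up to 3 reads, or 2.65 to 3.86 normalized reads, for counting error only. Limma 3.58.1 (R 4.3.3) was fitted to the deposited values of all 7 libraries by genotype, with a trend of variance on mean and 4 residual degrees of freedom. Tested were 16900 genes, those averaging 10 or more normalized reads, two-sided, with Benjamini-Hochberg adjustment over all of them and a threshold of 0.05. All 7 genes described passed the filter. The fit was tested on simulated data.

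The members and lists were chosen with earlier results of these data known. The naming rule took all 7 members, up to 3 genes of smallest p per list besides Cdkn2a and Cdkn2b, and the 2 genes nearest in pattern to each member. Npcd, Nptxr and Edr2_p36 were added because they overlap, neighbour or duplicate a member. Values of 1 further gene and the sequence of 1 member are not reported here. Replicate numbers were not taken to pair libraries, because the labels do not say whether they do. Deviations of same-numbered libraries correlated between -0.16 and 0.20, and those of differently numbered ones between -0.23 and 0.23. In groups of 2 the deviations mirror each other, so these values cannot settle the pairing. Alternatives covered scaling, filters, variance models, weights, the replicate block and left-out libraries. Python 3.11.15 was used for the rest.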

Additional observations from a re-analysis of the deposited data

How the results depend on the processing

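None of the 28 differences (7 genes, 4 comparisons) passed the adjusted threshold under any of 553 alternative values, and 32 of these values had the opposite sign. The 95% interval of each of the 28 differences includes 0, whether its sign turned or not. The count of all genes called was 0 in all 4 comparisons with every setting except 2: without both p53 KO replicate 1 and Mdm2 C462A replicate 2 it was 1 (Ifi202b) for p53/Mdm2 KO and 1 (Ifi202b) for both genotypes averaged, and with sample weights it was 3 for the latter (Clcn6, Pla2g4b and Synm). With 1 library left out at a time it ranged from 0 to 0. Counts at an unadjusted p under 0.05 depended on single libraries: in p53/Mdm2 KO 507 became 784 without p53 KO replicate 1, in C462A 1761 became 638 without C462A replicate 2, for both averaged 1322 became 740 without p53/Mdm2 KO replicate 1 and 822 without C462A replicate 2, and between the mutants 503 ranged from 61 to 1519 and moved by over 1.5 times with each library left out. With the replicate number as a block the calls stayed at 0, and the differences from p53 KO that turned were those of Cbx7 (-0.11), Phc1 (-0.10) and Phc2 (-0.049) in p53/Mdm2 KO, Phc3 in C462A (0.072), and Phc1 (-0.0030) and Phc3 (0.029) in both averaged. Without both outlying libraries Cbx6 and Cbx8 in C462A against p53 KO were 0.18 and -0.082, and Phc3 against p53/Mdm2 KO was -0.046. Scaling to library totals turned Phc3 to 0.081 in C462A and 0.014 in both averaged, and quantile normalization turned it to 0.045 in C462A. Leaving out 1 library at a time gave, in p53/Mdm2 KO against p53 KO, -0.16 to 0.47 for Cbx7, -0.10 to 0.15 for Phc1, -0.049 to 0.28 for Phc2 and -0.47 to 0.27 for Phc3. In C462A against p53 KO it gave -0.22 to 0.34 for Cbx8 and -0.15 to 0.12 for Phc3, and against p53/Mdm2 KO -0.19 to 0.57 for Cbx6 and -0.28 to 0.45 for Phc3. For both averaged it gave -0.26 to 0.015 for Cbx8, -0.0030 to 0.20 for Phc1, -0.25 to 0.075 for Phc2 and -0.24 to 0.12 for Phc3. The cause of these changes was not tested. Fitting only the compared groups has no counterpart for both averaged, which already uses all libraries. Where 1 library of a group remains, it is assumed to vary like the others.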
